A study of Mus musculus with 12 samples.

Results

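miR-1, miR-133 and miR-206 are the miRNAs most closely tied to striated muscle. Here they were followed in serum through 5 rows of the miRNA count tables: the mouse rows of miR-1a-3p (MIMAT0000123), miR-133a-3p (MIMAT0000145), miR-133b-3p (MIMAT0000769) and miR-206-3p (MIMAT0000239), and the human row of miR-133a-3p (MIMAT0000427). They were chosen by name as muscle miRNAs, and they are 5 of the 1340 rows in all, 874 in the mouse and 466 in the human tables. Of the 5, 3 held a read in at least 1 library.

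Serum came from 3 female athymic immunodeficient NCr nude mice (1046, 1047 and 1069), aged 4 to 6 weeks at xenografting. Each mouse was bled before, and 2 weeks after, SH-SY5Y cells had been placed under its renal capsule by surgery. SH-SY5Y cells are a long-established line grown from a human neuroblastoma. RNA was extracted from 50 μl of serum, and each of the 6 sera gave an aliquot depleted of 5′ tRNA-halves and an undepleted aliquot. This gives 4 groups of 3 libraries: before injection depleted, before injection undepleted, after injection depleted and after injection undepleted. The 5′ tRNA-halves are tRNA fragments that crowd murine serum libraries, and they were pulled out with biotinylated DNA probes and magnetic beads. Depleted libraries held 938706 to 2271549 mouse miRNA reads and undepleted ones 21235 to 97183. In depleted libraries 3 reads were therefore 1.32 to 3.20 ppm (reads in each 1000000 miRNA reads of the table), and in undepleted ones 30.9 to 141 ppm. All mice received tumour cells, so tumour, surgery and elapsed time cannot be told apart. The 3 libraries of a group are 3 mice.

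A miRNA is a short RNA that lowers the output of mRNAs paired to its seed, the bases 2 to 8 of the mature strand. miR-1 and miR-133a are cut from shared transcripts of heart and skeletal muscle, and miR-206 and miR-133b from a shared transcript of skeletal muscle. miR-1 and miR-206 share their seed and are known to favour differentiation of muscle precursors, whereas miR-133 is known to favour their proliferation. All of them can leak into blood when muscle fibres are damaged.

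To show how the members are related, the mature strands that the RefSeq miRNA table (GRCm38.p6) holds are printed 5′ to 3′ with the seed in capitals. The table gave 2 of the 4 mouse members by name, and they are the skeletal muscle pair encoded together on chromosome 1.
miR-206-3p: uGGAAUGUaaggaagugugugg
miR-133b-3p: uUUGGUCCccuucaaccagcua
The strand of miR-206-3p lies at chr1:20679055-20679076 and that of miR-133b-3p at chr1:20682834-20682855, both on the plus strand. Their hairpins, Mir206 and Mir133b, are 3686 bases apart, and both overlap an exon of the lincRNA Gm28653 in GENCODE M21. The mature strands are 22 bases long each and are identical at 4 of the 22 positions, so the seeds differ although the genes are neighbours. Of 1679 distinct mature entries in the table, 3 carried the seed of miR-206-3p and 1 that of miR-133b-3p. The latter count leaves out miR-133a-3p, which has the same seed but is not held there. Mir1a-1, at chr2:180389048-180389124, and Mir133a-2, at chr2:180398379-180398482, form a second pair on the plus strand of chromosome 2 and overlap no other annotated gene. miR-133a-3p and miR-133b-3p differ only in their last base, so a read that stops before it matches the genes of both. How such reads were counted was not stated.

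First, the level of each member was compared within the libraries, and the 4 mouse members differed widely. miR-133a-3p was read in 12 of 12 libraries, from 80 to 12600 times. miR-206-3p was read in 3 of 12 libraries and 14 times in all. miR-1a-3p and miR-133b-3p had no entry in any of the 12 mouse tables, and a missing entry was taken as 0. For these last members, 3 reads summed over a group would have been 0.730 ppm of mouse miRNA reads in depleted libraries before injection and 0.518 after it, and 14.4 and 17.7 in undepleted libraries. These limits cover counting error only, and they hold for a row of the tables, not for the miRNA in serum. Whether the missing entries reflect serum, library preparation or the counting of reads was not tested. Levels of different miRNAs in 1 library are read counts, which ligation of adaptors can favour unequally.

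Besides Mir133a-2, miR-133a-3p has a second gene, Mir133a-1, on the minus strand of chromosome 18. That gene lies in an intron of Mir133a-1hg on the same strand, and opposite an intron of Mib1 on the plus strand. In serum miR-133a-3p was among the more abundant miRNAs. Before injection it ranked 20th to 31st of 546 to 563 listed mouse miRNAs in depleted libraries and 25th to 34th of 225 to 305 in undepleted ones. After injection it ranked 44th to 50th and 42nd to 45th, respectively. Its level in depleted libraries before injection was 7723 ppm of mouse miRNA reads in mouse 1046, 6920 in mouse 1047 and 4548 in mouse 1069. After injection the same mice had 1921, 2470 and 2457 ppm. All 3 depleted libraries after injection lay below all 3 before it. In undepleted libraries the level was 6308, 5322 and 3767 ppm before injection, in the same order of mice, and 1776, 2060 and 2326 after it. Here, too, the time points did not overlap. The share of all mouse miRNAs whose time points did not overlap was not computed. The separation is therefore not shown to be particular to miR-133a-3p. Mouse 1069 was the lowest of the 3 mice before injection in both kinds of library.

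**Figure D1:**
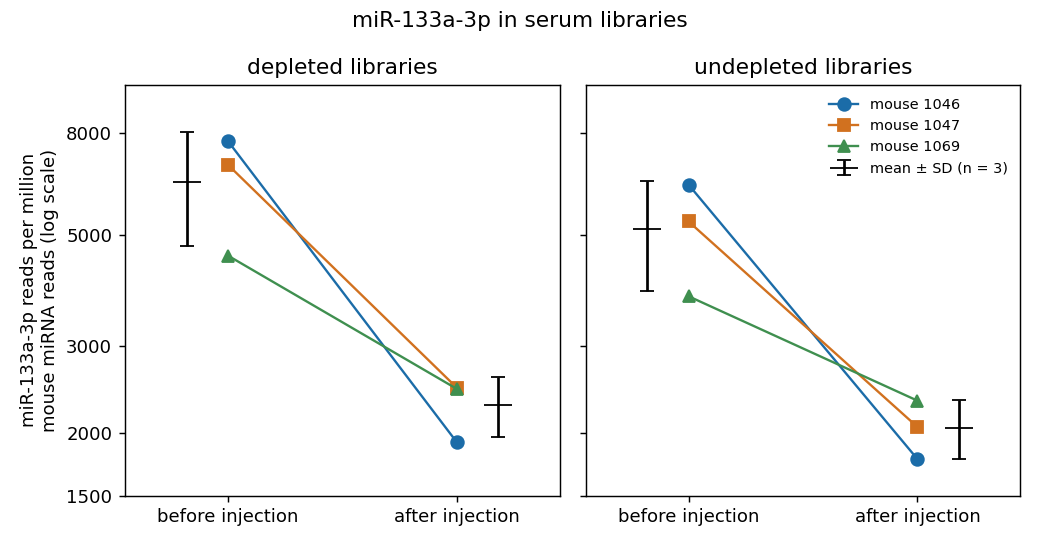
Level of miR-133a-3p in ppm of mouse miRNA reads (y axis, log scale) before and after injection, in depleted libraries on the left and undepleted libraries on the right. Points are single libraries, lines join the sera of 1 mouse, and black bars are the mean ± SD of 3 mice; every line falls, most steeply in mouse 1046 and least in mouse 1069.

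The groups, ordered by mean level of miR-133a-3p, were before injection depleted (6397 ± 1651 ppm, SD, n = 3), before injection undepleted (5132 ± 1281), after injection depleted (2283 ± 313) and after injection undepleted (2054 ± 275, SD, n = 3 each). The first pair in this order overlapped, as did the last pair, whereas the lowest level before injection in undepleted libraries, 3767, was above the highest after it in depleted ones, 2470. Counting error was wide in undepleted libraries. After injection the 95% Wilson intervals of mice 1046, 1047 and 1069 there were 1486 to 2121, 1705 to 2488 and 1938 to 2791 ppm. They overlapped, which is no test of a difference, and these mice were not tested against each other. The smallest count, 80 reads in the undepleted library of mouse 1069 before injection, had an interval of 3028 to 4686 ppm.

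To ask whether miR-133a-3p changed after injection, its counts were tested with DESeq2, fitted over all miRNAs of a table. The threshold for a change was a p under 0.05 after Benjamini-Hochberg adjustment, together with a difference of 2-fold or more. In depleted libraries miR-133a-3p fell, with a log2 fold change of -1.64 (standard error 0.29, DESeq2 adjusted p = 3.94e-06). Normalised counts, that is counts divided by the size factor of the library, were 11535 ± 4095 before and 3327 ± 506 after injection (SD, n = 3 each). Of the 310 mouse miRNAs tested there, 10.6% were changed in either direction and 5.81% were lower. Only 2 of the 310 had a lower log2 fold change than miR-133a-3p, and the median over the 310 was -0.09.

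In undepleted libraries miR-133a-3p also fell, with a log2 fold change of -1.35 (standard error 0.28, DESeq2 adjusted p = 0.000113). Its normalised counts there were 303 ± 105 before and 111 ± 15 after injection (SD, n = 3 each). Of 108 mouse miRNAs tested, 11.1% were changed and 2.78% were lower, and none of the 108 had a lower log2 fold change than miR-133a-3p. This call rested on the mice at hand: without mouse 1046 the log2 fold change was -1.001 (DESeq2 adjusted p = 0.176), and without mouse 1047 it was -1.13 (adjusted p = 0.342). In depleted libraries the call held without any 1 mouse. A fold change in serum does not tell fewer releasing cells from less RNA released by each cell.

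**Figure D2:**
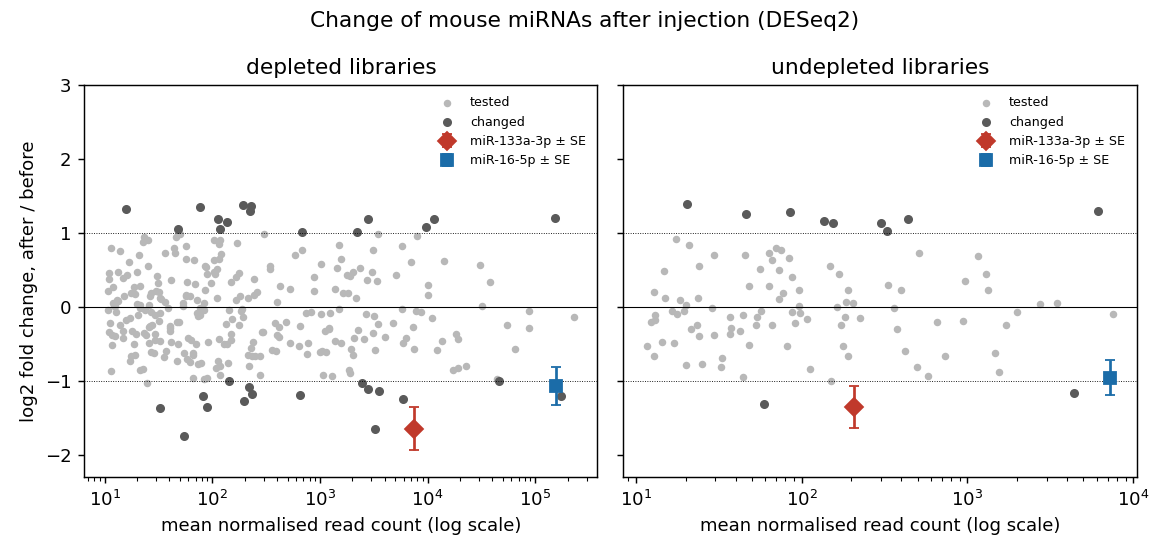
Log2 fold change after against before injection (y axis) by mean normalised read count (x axis, log scale) for every tested mouse miRNA, in depleted (310 miRNAs) and undepleted libraries (108 miRNAs). Light points are tested and dark points changed miRNAs, and bars on miR-133a-3p (red) and miR-16-5p (blue) are standard errors; dotted lines mark 2-fold differences, and miR-133a-3p lies at -1.64 and -1.35, near the lower edge of each cloud.

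The size of the decrease varied among mice. In depleted libraries the normalised count of miR-133a-3p was 5.07-fold lower after injection in mouse 1046, 3.90-fold lower in mouse 1047 and 1.85-fold lower in mouse 1069. In the undepleted aliquots of the same sera it was 4.01-, 3.10- and 1.47-fold lower. The order of the mice was thus the same in both kinds of library, which share the serum and so are not independent. On the log2(normalised count + 1) scale the mean change was -1.73 ± 0.75 in depleted and -1.39 ± 0.75 in undepleted libraries (SD, n = 3 mice each). With 3 against 3 libraries the exact permutation test cannot go below p = 0.1, which it reached in both (two-sided, log2 ppm).

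Whether the decrease differed between depleted and undepleted libraries was tested directly. The interaction of time point and depletion for miR-133a-3p was -0.24 on the log2 scale (standard error 0.48, 95% interval -1.18 to 0.70, DESeq2 adjusted p = 0.998). In this fit DESeq2 called 0 of 874 mouse miRNAs (0%), with 3 at an unadjusted p under 0.05, and edgeR called 0 as well. The interval is wide, and this fit did not use which aliquots share a serum. With a replicate block the interaction was -0.26 (standard error 0.14, DESeq2 unadjusted p = 0.062, adjusted p = 0.999). In all 3 mice the normalised count fell more in depleted than in undepleted libraries. The falls were 5.07- against 4.01-fold (mouse 1046), 3.90- against 3.10-fold (mouse 1047) and 1.85- against 1.47-fold (mouse 1069). The interaction was not called in either fit, which does not show that the decreases were equal.

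miR-206-3p, which skeletal muscle expresses and heart largely does not, was at the limit of detection. In depleted libraries before injection it was read 2 times in mouse 1046, 9 times in mouse 1047 and 3 times in mouse 1069, which is 1.48, 4.94 and 3.20 ppm of mouse miRNA reads. After injection it was read 0 times in all 3 depleted libraries, and it was read 0 times in all 6 undepleted libraries. All 14 reads thus came from the sera drawn before injection.

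Summed over the group, the share of miR-206-3p before injection was 3.41 ppm (exact 95% Poisson interval 1.86 to 5.72, counting error only). At that share 19.7 reads would have been counted in the 5794175 mouse miRNA reads of the depleted libraries after injection, where there were 0. Against a floor of 3 reads over that group, the pooled level was 6.58-fold lower after injection. Without mouse 1047, which gave 9 of the 14 reads, this value was 2.95-fold, and without mouse 1069 it was 4.08-fold. These values take the share before injection as exact, so they are no lower bounds. With counting error on both sides, the limits nearest each other were 1.86 ppm before and 0.637 ppm after injection. DESeq2 gave miR-206-3p no adjusted p, because its mean normalised count of 2.89 fell under the independent filter, and its unadjusted p was 0.0240. In mice 1046 and 1069 the counts of 2 and 3 before injection are at or under the floor of 3. In the undepleted libraries the same share would have given 0.710 reads before and 0.578 reads after injection over each group, so a difference there was not detectable at this depth.

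**Figure D3:**
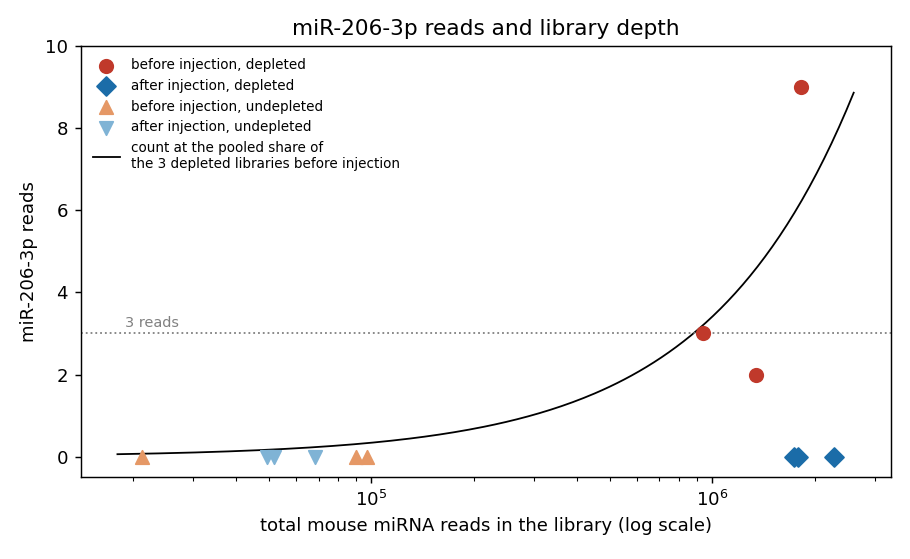
Reads of miR-206-3p (y axis) against the total of mouse miRNA reads (x axis, log scale) in the 12 libraries, with 1 symbol for each group. The line gives the count that the pooled share of the 3 depleted libraries before injection (3.41 ppm) would yield and the dotted line marks 3 reads; the 3 depleted libraries after injection hold 0 reads where the line lies at 5.93 to 7.74.

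To ask whether the muscle miRNAs moved together, their counts were set against each other within each library, which needs no scaling. Of the mouse members only miR-133a-3p and miR-206-3p could be compared, and only in the depleted libraries before injection. miR-133a-3p was read 5207 times as often as miR-206-3p in mouse 1046, 1400 times as often in mouse 1047 and 1423 times as often in mouse 1069. The log2 of this ratio was 11.1 ± 1.1 (SD, n = 3), and the value of mouse 1046 rests on 2 reads of miR-206-3p. After injection miR-206-3p was at 0, so the ratio was set against a floor instead. At the pooled ratio before injection, the 13305 reads of miR-133a-3p after it would have come with 6.83 reads of miR-206-3p, where there were 0. Against a floor of 3 reads, miR-206-3p was 2.28-fold lower relative to miR-133a-3p. Without mouse 1047 this value was only 1.02-fold and without mouse 1069 it was 1.23-fold. The ratio before injection is again taken as exact, so these are no lower bounds. The exact permutation test of this ratio, added after the data had been seen, gave p = 0.1, the smallest that 3 against 3 libraries allow. With miR-206-3p at 0 in all 3 libraries after injection and read in all 3 before it, this p was fixed. It would be the same whatever miR-133a-3p did, so it cannot tell whether both moved together. Only miR-133a-3p passed the test of a change after injection, so whether the members moved together was not shown. Neither pair encoded together could be compared, since miR-133b-3p and miR-1a-3p had no entry.

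Next, miR-133a-3p was set against miR-16-5p (MIMAT0000527), the miRNA with which the study checked its depletion. miR-16-5p is abundant in red blood cells, among many other cells. It fell too in depleted libraries, with a log2 fold change of -1.07 (standard error 0.25, DESeq2 adjusted p = 0.000882). Without depletion its fitted log2 fold change of -0.95 (DESeq2 adjusted p = 0.000907), which DESeq2 drew towards 0, was just under the 2-fold limit. Its normalised counts there were 9726 ± 2332 before and 4823 ± 888 after injection (SD, n = 3 each). For each 1000 reads of miR-16-5p, depleted libraries before injection held 61.3 reads of miR-133a-3p in mouse 1046, 55.2 in mouse 1047 and 41.9 in mouse 1069. After injection they held 24.9, 36.7 and 43.7. The ratio was lower after injection in mice 1046 and 1047 and slightly higher in mouse 1069, and the groups overlapped.

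In undepleted libraries the ratio was 36.1, 29.9 and 26.0 before injection and 17.1, 22.0 and 32.6 after it, with the same split between the mice. The mean change of the log2 ratio was -0.61 ± 0.68 in depleted and -0.40 ± 0.70 in undepleted libraries (SD, n = 3 mice each). Exact permutation tests, two-sided and adjusted over the 2 ratios, gave unadjusted p = 0.2 and p = 0.3 and adjusted p = 0.3 for both. These exact tests cannot go below p = 0.1 with 3 against 3 libraries, so they could not pass 0.05. The values rested on single mice: without mouse 1046 they were -0.26 in depleted and -0.06 in undepleted libraries, and without mouse 1069 they were -0.94 and -0.76. This comparison was chosen after the data had been seen. The part of red blood cells in either change was not tested, since no other red cell miRNA could be matched to its row.

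**Figure D4:**
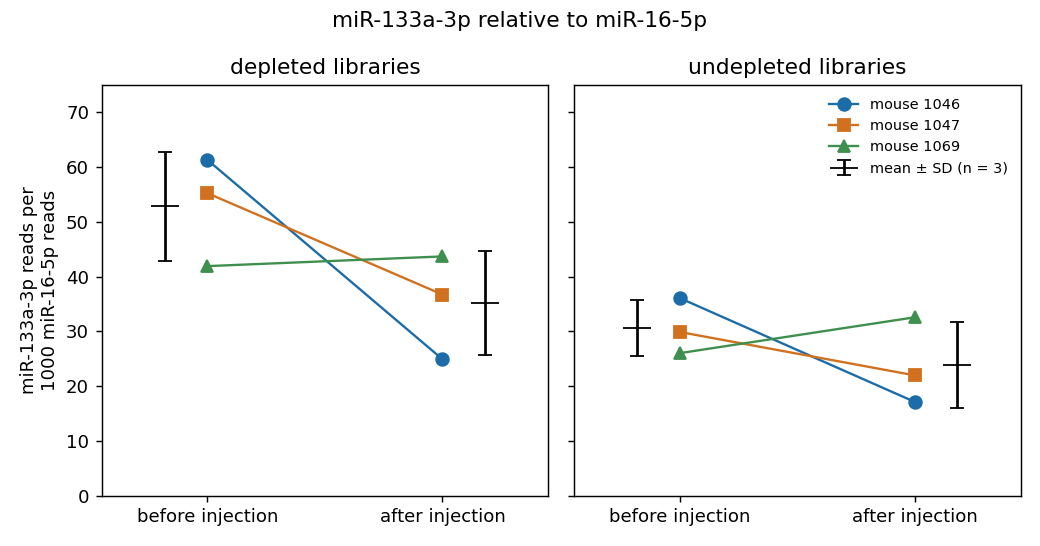
Reads of miR-133a-3p per 1000 reads of miR-16-5p in the same library (y axis), before and after injection, in depleted (left) and undepleted libraries (right). Points are single libraries, lines join the sera of 1 mouse, and black bars are the mean ± SD of 3 mice; the lines of mice 1046 and 1047 fall and that of mouse 1069 rises, in depleted libraries from 41.9 to 43.7.

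The mouse miRNAs whose pattern was most like that of miR-133a-3p were then sought among the 212 others with a mean of at least 50 normalised counts in the 6 depleted libraries. Likeness was Pearson's r of log2(normalised count + 1) over these 6 libraries, which come from 3 mice and share the step between time points. The highest r was 0.954, for MIMAT0000652, followed by 0.945 for miR-16-5p and 0.942 for MIMAT0031420, against a median of 0.082 over the 212. An r above 0.9 was reached by 12 of the 212, so such values were not particular to these miRNAs. In the 6 undepleted libraries r was 0.944 for MIMAT0000652 and 0.903 for miR-16-5p, but -0.30 for MIMAT0031420. In depleted libraries MIMAT0000652 fell, from a normalised count of 62711 ± 14260 to one of 29908 ± 3195 (SD, n = 3 each). Its log2 fold change was -1.002 (DESeq2 adjusted p = 0.00159). This miRNA was picked for its likeness to miR-133a-3p, which fell in these same libraries. Its fall and this p are therefore no separate support.

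The effect of the depletion itself on miR-133a-3p was measured within each serum, between its 2 aliquots. The depleted one held 17.0 to 53.4 times as many reads of miR-133a-3p as its counterpart. Relative to all mouse miRNA reads, its level was higher in the depleted aliquot in 6 of 6 sera, by 0.23 ± 0.11 on the log2 scale (SD, n = 6 sera from 3 mice), or 1.18-fold, and p was 0.03125 by an exact permutation of signs, which is as low as 6 pairs can reach. With the size factors of DESeq2 it was higher in 4 of 6 sera, by 0.12 ± 0.16 (SD, n = 6), with p = 0.1875 by the same exact test. Relative to miR-16-5p it was higher in 6 of 6 sera, by 0.67 ± 0.17 (SD, n = 6), with p = 0.03125 by the same exact test. miR-16-5p itself had a log2 fold change of -0.56 in depleted against undepleted libraries (DESeq2 adjusted p = 0.00525), so the last difference is one between both miRNAs. These 3 tests were added after the data had been seen. They took the 6 sera as independent, although each mouse gave 2 of them. With the 3 mice as units, an exact permutation of signs could not go below p = 0.25. The fit over all 12 libraries gave a log2 fold change of 0.12 (standard error 0.23, 95% interval -0.32 to 0.57, DESeq2 adjusted p = 0.858). miR-133a-3p was thus not called there, where 8.36% of 383 tested mouse miRNAs were.

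Finally, the human row of miR-133a-3p was examined. Its counts equalled those of the mouse row in 12 of 12 libraries, so the human row is no second measurement. The counts alone do not tell the species of origin apart. Before injection the mice carried no human cells, so the species is open only for sera drawn after it. As parts of the human-annotated reads the human row made up 4009, 3269 and 2468 ppm in depleted libraries before injection, for mice 1046, 1047 and 1069, and 1218, 1591 and 1757 after it. Its log2 fold change was -1.54 in depleted libraries (standard error 0.30 and DESeq2 adjusted p = 3.26e-05), where 7.12% of 323 tested human miRNAs were changed and 1.86% were lower. In undepleted libraries it was -1.32 (standard error 0.28, DESeq2 adjusted p = 7.39e-05), where 10.1% of 89 were changed and 3.37% were lower. There the call was lost without mouse 1046 (adjusted p = 0.345) and without mouse 1047 (adjusted p = 0.273). The counts of mouse miR-206-3p were matched in 12 of 12 libraries by a human row, MIMAT0000462, so they alone do not tell the species apart either. All 14 reads of miR-206-3p, however, came from sera drawn before any human cells were injected.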

How the data were processed

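Small RNA of 12 serum libraries was sequenced after TruSeq small RNA library preparation with 15 PCR cycles. The authors trimmed adaptors with Cutadapt 1.8.1, filtered reads on length and quality, mapped them with Bowtie 1.1.2 without mismatches and assigned them to miRBase miRNAs on GRCm38/mm10 or GRCh37/hg19. The deposited values are raw read counts for each mature miRNA, in a mouse and a human table per library, without normalization. miRNAs without reads are not listed and were set to 0. Levels in ppm are relative to all counts of the table, so only relative levels are measured.

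DESeq2 1.42.0 (R 4.3.3) was fitted to the whole table with size factors from the median of ratios, Wald tests, the zero-centred prior on fold changes and independent filtering at 0.05. Time point was the only term, and mouse and human tables and depleted and undepleted libraries were fitted separately. The study also used DESeq2, in another version. The depletion fit used all 12 mouse tables with time point as covariate, and the interaction fit had no prior and no fold limit. Exact tests were run in Python 3.11.15 with SciPy 1.17.1 and NumPy 2.4.6.

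Same-numbered libraries come from the same mouse. Their deviations from the group means correlated with r of -0.42, 0.10 and -0.14 in depleted and -0.27, -0.24 and -0.14 in undepleted libraries (mice 1046, 1047 and 1069, over 213 and 68 miRNAs).

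Members were named by the choice of muscle miRNAs, the others by the highest correlation with miR-133a-3p. Members and lists were chosen with earlier results of these data known. Accessions were paired with names only for the members and, in the study, for miR-16-5p. None of 25 further muscle miRNAs (such as miR-208b and miR-499), none of 7 liver, leukocyte, endothelial and pancreatic ones and 1 of 5 red cell ones could therefore be matched, and they were not analysed here. Alternatives were edgeR 4.0.16, TMM factors, a minimum of 4 counts in 3 libraries, no prior, no fold limit, each mouse left out, the mouse or serum as a replicate block, other pseudocounts and other scalings.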

Additional observations from a re-analysis of the deposited data

How the results depend on the processing

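The log2 fold change of miR-133a-3p after injection stayed negative under all 9 alternatives in each tumour fit. In depleted libraries all 9 kept the call (mouse row -2.06 to -1.35 and human row -1.998 to -1.22, which are also the ranges with each mouse left out). In undepleted libraries 7 of 9 kept it. With each mouse left out the values there ran from -1.71 to -1.001 (mouse row) and from -1.65 to -0.94 (human row), and the call was lost without mouse 1046 and without mouse 1047. With the mouse as a replicate block the values were -1.59, -1.27, -1.48 and -1.25 (mouse depleted, mouse undepleted, human depleted, human undepleted), and the block changed no call. The depletion effect (0.11 to 0.38) and the interaction (-0.35 to -0.20) were not called under any alternative run. TMM factors moved the median over tested mouse miRNAs in the depletion fit from -0.04 to 0.20, and miR-133a-3p from 0.12 to 0.38. The log2 ratio of mean levels after and before injection was -1.79 (depleted) and -1.46 (undepleted). Taken relative to miR-16-5p, a scaling added after seeing the data, it was -0.59 and -0.36. The log2 ratio of miR-133a-3p to miR-206-3p ran from 10.5 to 11.4 with each mouse left out. Numbers of changed miRNAs moved by over 1.5 times as follows. In mouse depleted libraries 33 became 11 without mouse 1047, 19 without mouse 1069 and 52 without the fold limit, and in mouse undepleted libraries 12 became 1, 7 and 21. In human depleted libraries 23 became 43 with edgeR, 14 without mouse 1046, 6 without mouse 1047 and 37 without the fold limit. In human undepleted libraries 9 became 15 with edgeR, 1 without mouse 1047 and 21 without the fold limit, and in the depletion fit 32 became 19 without mouse 1046 and 55 without the fold limit. At its share before injection, the depth of the undepleted libraries would give under 1 read of miR-206-3p in each group of 3.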
